A study of Mus musculus with 6 samples.

Results

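Extracellular proteases of colon tumours are held in check by secreted inhibitors and are partly switched on by plasminogen activators. The genes described here are 9 members of that system: the tissue inhibitors of metalloproteinases Timp1, Timp2 and Timp3, the plasminogen activators Plau and Plat, the urokinase receptor Plaur, the activator inhibitor Serpine2, and the metalloproteinases Adam8 and Adamts4. All probe sets annotated to exactly 1 of these symbols were taken. That gave 19 of the 45101 probe sets on the array and covered 8 of the 9 genes. No probe set with the single symbol Serpine2 is listed in the annotation table used, and this gene was not analysed here.

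RNA came from colon tumours of 3 wild-type control mice and of 3 mice with a human IL8 transgene. Each sample was run on 1 array, and all mice are labelled CBA/C57BL/6. The transgene product, IL8 or CXCL8, is a chemokine that draws in neutrophils. No source used here gives the promoter of the transgene, the age of the mice or the way the tumours arose. Nothing says whether a sample is 1 tumour or a pool, so p-values cover only the spread between these samples, which may be technical.

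The urokinase system works at the cell surface. Urokinase (Plau) bound to its receptor (Plaur) cuts plasminogen to plasmin, while tissue-type activator (Plat) does the same mainly on fibrin, and serpins block both activators. Plasmin digests matrix and can activate pro-forms of matrix metalloproteinases, whose active sites the TIMPs then occupy. In tumours these genes are expressed by epithelial cells, fibroblasts, endothelium and infiltrating myeloid cells, so a level in whole tumour RNA mixes all of them.

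The groups differed in Xist and Y-linked genes, and some arrays also stood apart from their own group. All 6 animals are labelled male, yet Xist was at 12.27 to 12.89 on the transgenic arrays and at 2.33 to 2.64 on the control arrays, and the Y-linked gene Eif2s3y was at 2.39 to 2.71 against 9.99 to 10.22. Genotype and this split cannot be told apart. Transgenic array 2 had high markers of stratified squamous epithelium, with a mean over 9 markers of 10.74 against 3.59 to 4.45 on the other 5 arrays. Smooth muscle markers were also high on it, at 10.03, and on transgenic array 3, at 8.76, against 5.66 to 7.03 elsewhere. Transgenic array 1 had the lowest fibroblast marker mean, 8.62 against 9.45 to 9.94, and its Gapdh control probe sets differed least between the 3′ and 5′ ends, by 0.71 against 0.87 to 0.96. Markers of simple colon epithelium were at 11.67 to 12.25 on all 6 arrays. In whole tumour RNA, fewer cells of a type and less RNA per cell cannot be told apart.

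For orientation on regulatory sequence, the RefSeq table of build GRCm38.p6 holds promoters of 6 of the 9 genes: Timp1, Timp2, Timp3, Plaur, Serpine2 and Adam8. The 250 bases before the annotated start were searched on both strands for TGANTCA, the core bound by AP-1, a transcription factor family switched on by growth and inflammatory signals. The motif reads the same on either strand. Only the Plaur window of these 6 held it, as 1 match beginning 69 bases before the start, and 6.75% of all 32851 windows in the table hold it. The Plaur window is shown because it holds the match, and the Timp1 window because Timp1 is the gene whose groups did not overlap below. Capitals mark the match, and the Timp1 window has none. The gene span of Plaur in RefSeq begins farther upstream than this start, so the window may lie inside a longer transcript.
Plaur (chr7:24462233-24462482, plus strand): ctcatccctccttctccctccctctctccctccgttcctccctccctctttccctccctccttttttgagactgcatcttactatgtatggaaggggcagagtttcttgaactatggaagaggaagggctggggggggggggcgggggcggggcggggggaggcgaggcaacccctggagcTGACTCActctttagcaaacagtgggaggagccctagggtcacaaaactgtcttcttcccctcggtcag
Timp1 (chrX:20869916-20870165, plus strand): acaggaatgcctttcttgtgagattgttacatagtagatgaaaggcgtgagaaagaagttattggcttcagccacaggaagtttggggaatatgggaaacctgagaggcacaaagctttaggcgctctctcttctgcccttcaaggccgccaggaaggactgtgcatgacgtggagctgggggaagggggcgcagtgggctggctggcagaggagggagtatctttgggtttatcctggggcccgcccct
The match is a description of the letters and the array values do not test it.

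Timp1 was the member whose groups did not overlap. This inhibitor of most secreted matrix metalloproteinases, which also acts as a growth factor, was at 7.25, 7.57 and 8.60 on control arrays 1, 2 and 3 and at 6.29, 6.86 and 6.64 on transgenic arrays 1, 2 and 3 (log2 expression). All 3 transgenic arrays were below all 3 control arrays, by a gap of 0.39 between the nearest values, and control array 3 was the highest by 1.03. The group means were 7.81 ± 0.70 and 6.60 ± 0.29 (SD, n = 3 each). The difference was -1.21 ± 0.37 (SE, transgenic minus control), which is 2.31-fold lower, with a 95% interval of -2.11 to -0.31. It did not pass the test, with a limma unadjusted p of 0.0163 and an adjusted p of 0.806 after Benjamini-Hochberg adjustment over the 19310 probe sets tested.

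Timp1 lies on the X chromosome, on which the arrays also differ in Xist as described above. Its direction could not turn with an array left out, because the groups did not overlap. The difference was -0.81 without control array 3 and -1.49 without control array 1. Of the 10 monocyte and macrophage markers, 9 had a lower transgenic mean, as Timp1 had, and Cd14 a higher one. The mean of all 10 markers in that list was 7.96, 8.40 and 8.55 on control arrays 1, 2 and 3 and 7.20, 6.48 and 7.77 on transgenic arrays 1, 2 and 3, and none of the 10 was under 4 on every array. Fibroblast markers were at 9.88 to 9.94 in controls and 8.62 to 9.77 in transgenic tumours, and all 10 had a lower transgenic mean. The mean of 10 endothelial markers was 4.94 to 5.07 in controls and 4.69 to 4.82 in transgenic tumours, with 2 of the 10 under 4 on every array. Of these 10 markers 8 had a lower transgenic mean and 2 a higher one. Over all tested probe sets 53.2% had a lower transgenic mean. Timp1 and the fibroblast mean were lowest on transgenic array 1. The macrophage mean was lowest on transgenic array 2 and the endothelial mean on transgenic array 3. The part of these cells in the Timp1 difference was not tested.

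**Figure D1:**
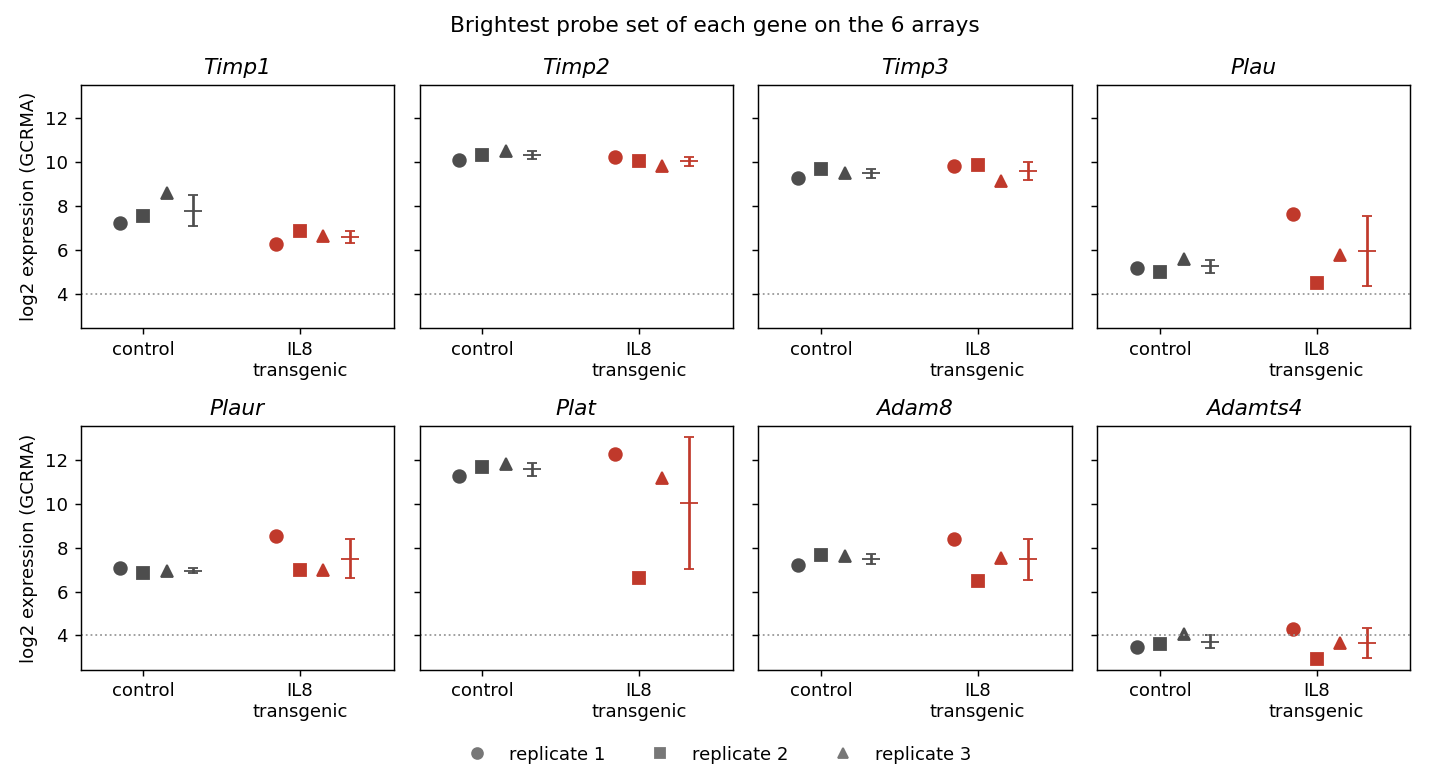
Log2 expression of the brightest probe set of each of 8 genes (y axis) on the 3 control arrays (grey) and the 3 transgenic arrays (red), with marker shapes for replicates 1 to 3 and bars for the mean ± SD; the dotted line is the detection level of 4. Timp1 is lower on all 3 transgenic arrays, at 6.29 to 6.86 against 7.25 to 8.60, while Plau and Plaur are high on transgenic array 1 and Plat is low on transgenic array 2.

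Timp2, which inhibits metalloproteinases and also helps Mmp14 activate pro-Mmp2, had 6 probe sets, of which 3 passed the filter (log2 of at least 4 on at least 3 arrays). The brightest read 10.13, 10.33 and 10.50 on control arrays 1 to 3 and 10.24, 10.08 and 9.82 on transgenic arrays 1 to 3. The groups overlapped, and the difference was -0.28 ± 0.18 (SE) with a 95% interval of -0.72 to 0.16 (limma adjusted p 0.806). The other tested probe sets differed by -0.12 and -0.29, with adjusted p of 0.909 and 0.891. The more variable of these ran from 8.50 on transgenic array 2 to 10.03 on control array 3, so a single Timp2 probe set can give an array order that the others do not. The 3 Timp2 probe sets that were not tested reached at most 4.12 on any array.

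Timp3 stays bound to the matrix after secretion and also inhibits ADAM proteases. Its brightest probe set read 9.29, 9.71 and 9.50 on control arrays 1 to 3 and 9.83, 9.88 and 9.13 on transgenic arrays 1 to 3. The transgenic arrays lay on either side of the controls, with array 3 the lowest of all 6. The difference was 0.11 ± 0.25 (SE), with a 95% interval of -0.49 to 0.72 (limma adjusted p 0.929). Both other tested probe sets also had transgenic array 3 lowest, at 8.87 and 5.48, and differed by 0.06 and 0.05. The interval of each of the 3 includes 0, and for the brightest it leaves room for a change of up to 0.72 in size.

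Plau, which encodes urokinase, was high on 1 transgenic array. Its tested probe set read 5.19, 4.996 and 5.60 on control arrays 1 to 3 and 7.64, 4.49 and 5.76 on transgenic arrays 1 to 3. Transgenic array 1 was the highest by 1.88, which is 3.67-fold above the next array, and transgenic array 2 was the lowest of the 6. The difference of 0.70 ± 0.75 (SE) did not pass (95% interval -1.12 to 2.52, limma adjusted p 0.846), and without transgenic array 1 it was -0.14. The second Plau probe set stayed under 4 on all arrays and had the same array at the top, at 3.45.

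Plaur, the membrane-anchored receptor that concentrates urokinase at the cell edge, showed the same array at the top. It read 7.06, 6.84 and 6.95 on control arrays 1 to 3 and 8.55, 6.96 and 6.999 on transgenic arrays 1 to 3. The other 5 arrays lay between 6.84 and 7.06, and transgenic array 1 was 2.79-fold above the next. The control SD was 0.11 and the transgenic SD 0.90. The difference of 0.55 ± 0.44 (SE) did not pass (95% interval -0.51 to 1.61, limma adjusted p 0.811) and was 0.03 without transgenic array 1.

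Plat, the tissue-type plasminogen activator, had the widest range of the genes. It read 11.24, 11.66 and 11.82 on control arrays 1 to 3 and 12.27, 6.62 and 11.18 on transgenic arrays 1 to 3. Transgenic array 2 was 23.6-fold below the next lowest array, while the other 5 arrays lay between 11.18 and 12.27. The transgenic SD was 3.00 against 0.30 in controls, and 0.259% of all tested probe sets had a transgenic SD at least as large. The difference was -1.55 ± 1.39 (SE, 95% interval -4.92 to 1.82, limma adjusted p 0.827), and it turned to 0.16 without transgenic array 2. The second Plat probe set read 4.72, 5.35 and 5.05 on control arrays and 6.45, 3.46 and 5.07 on transgenic arrays 1 to 3, with the same arrays highest and lowest and a difference of -0.05.

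The array with low Plat was also the array with high squamous markers. On transgenic array 2 the squamous keratin Krt5 was at 10.27, against 2.66 to 2.86 on the other arrays, and Trp63, the regulator of squamous basal cells, was at 8.97 against 1.97 to 2.29. Of the 10 squamous markers 9 had a probe set, and all 9 were highest on transgenic array 2. The simple colon epithelium mean was 12.25 on that array, the highest of the 6. All 7 smooth muscle markers were highest on it too, and the monocyte and macrophage mean was lowest there, at 6.48. Of the macrophage markers Adgre1, Mrc1, Aif1 and Cx3cr1 were lowest on transgenic array 1, and Cd14 on transgenic array 3. The part of squamous tissue, smooth muscle or macrophages in the Plat value was not tested.

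**Figure D2:**
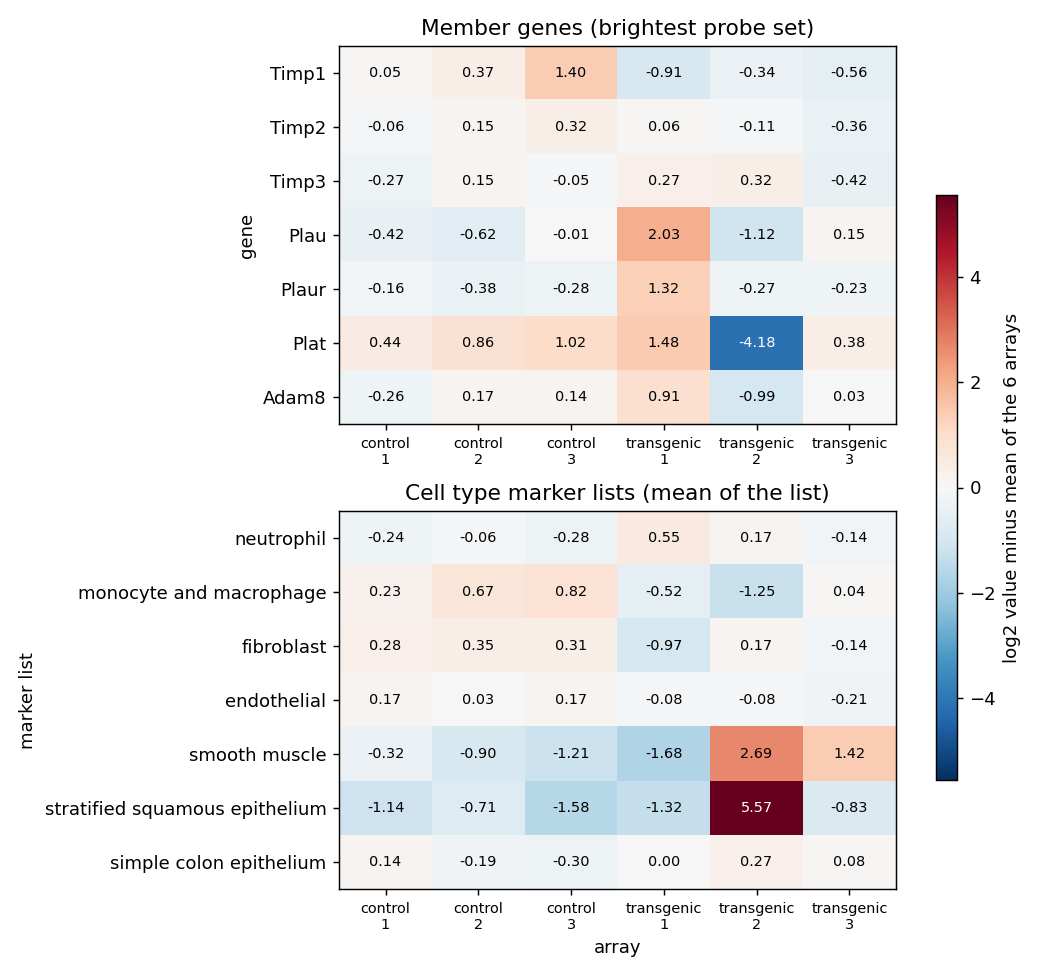
Log2 value minus the mean of the 6 arrays for 7 tested member genes (top) and for the means of 7 cell type marker lists (bottom), with arrays as columns and the value written in each cell. Plat is at -4.18 on transgenic array 2, where the squamous list is at 5.57, the smooth muscle list at 2.69 and the macrophage list at -1.25. Plau, Plaur, Plat and Adam8 all have their highest value on transgenic array 1.

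Adam8, a membrane protease carried by neutrophils and macrophages, had the same highest and lowest arrays as Plau. It read 7.21, 7.64 and 7.62 on control arrays 1 to 3 and 8.38, 6.49 and 7.51 on transgenic arrays 1 to 3. Transgenic array 1 was highest and array 2 lowest, on either side of the controls, and the difference of -0.03 ± 0.47 (SE) had a 95% interval of -1.16 to 1.10 (limma adjusted p 0.988). Leaving out transgenic array 2 gave 0.45, and leaving out array 1 gave -0.49. Adamts4, an aggrecan-cleaving protease, was near or under the detection level. Its brighter probe set read 3.48, 3.61 and 4.06 on control arrays and 4.31, 2.95 and 3.67 on transgenic arrays 1 to 3, and neither of its 2 probe sets was tested.

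Transgenic array 1 was thus the highest of the 6 for 4 of the 7 tested genes (Plau, Plaur, Plat and Adam8), and 25.6% of all tested probe sets had their highest value on it. Transgenic array 2 was the lowest for 3 of the 7 (Plau, Plat and Adam8), against 29.1% of all tested probe sets. The mean over 9 neutrophil markers was 6.75 on transgenic array 1, 6.37 and 6.06 on transgenic arrays 2 and 3 and 5.92 to 6.14 on the control arrays, but the single markers did not share 1 order. Ngp, a granule protein of maturing neutrophils, was at 5.78 on transgenic array 1 and at most 4.06 on the others. The calprotectin genes S100a8 and S100a9 were higher on transgenic array 2, at 11.72 and 11.81, than on array 1, at 11.56 and 11.39. Ltf was also highest on array 2, at 10.27 against 7.64 on array 1. Lcn2, which epithelium also expresses, was at 12.07 on array 1, 6.49 on array 2 and 12.13 on control array 3. Of the 9 markers 7 had a higher transgenic mean and 2, Lcn2 and Csf3r, a lower one. Over all tested probe sets 53.2% had a lower transgenic mean. The 2 markers highest on transgenic array 1 were Ngp and Mmp8, and Camp, Cxcr2 and Mmp8 were under 4 on all 6 arrays. That array was also the one with the smallest Gapdh 3′ to 5′ gap. The part of neutrophils or of RNA quality in these values was not tested.

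Read over all 12 tested probe sets, 0 passed an adjusted p of 0.05 with limma, where 0.057% of all probe sets did (11 of 19310, and 3 of 18835 when named X- and Y-linked genes other than Timp1 were left out). An unadjusted p under 0.05 was reached by 1 of the 12, Timp1, where 5.5% of all probe sets reached it. Groups did not overlap for 1 of the 12, again Timp1, against 10.9% of all tested probe sets, and 6.31% of all had no overlap with the transgenic arrays lower. The members' counts are near these background shares and are not a result about the list. Leaving out 1 array put the count without overlap at up to 4 (without control array 1 or transgenic array 3) and the unadjusted count at 0 (without transgenic array 1) to 2 (without transgenic array 2). The matching shares over all tested probe sets were not counted with an array left out. Smaller groups overlap less easily, and without the matching shares neither count is a result about the members. The median difference was -0.04 over the 12 and -0.02 over all tested probe sets. Adjusted p-values ran from 0.806 to 0.988. Over all 19 probe sets, including the 7 that were not tested, the median difference was -0.07.

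**Figure D3:**
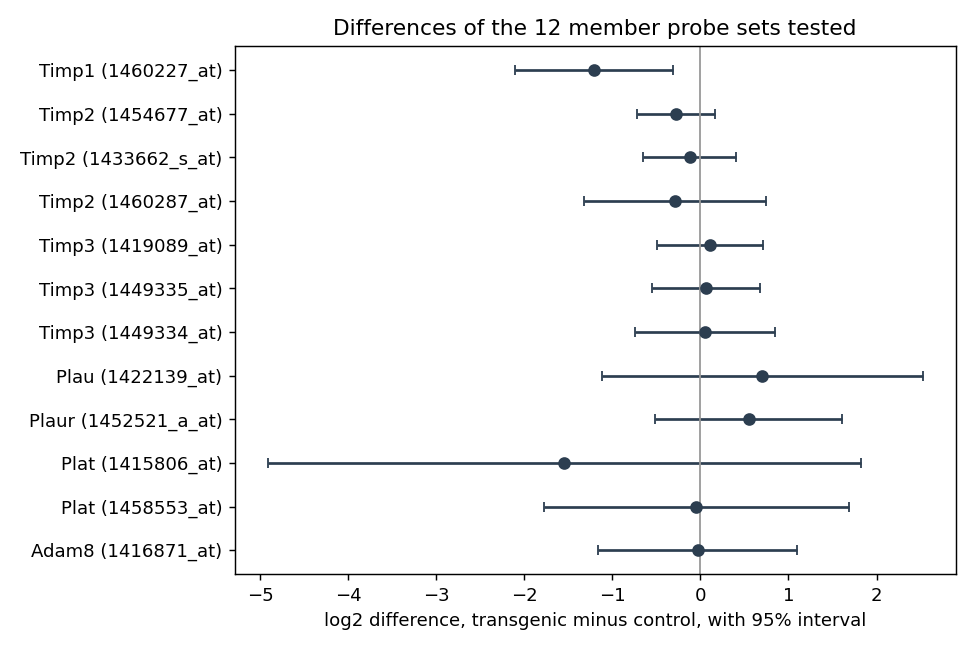
Log2 difference between transgenic and control tumours (x axis, points) with its 95% interval (lines) for the 12 tested probe sets of 7 genes. The interval of Timp1, -2.11 to -0.31, is the one that does not include 0, and that of Plat is the widest, from -4.92 to 1.82.

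Transgenic tumours differed among themselves most, of the 7 tested genes by their brightest probe set, for Plat, Plau, Adam8 and Plaur. A transgenic SD at least as large as that of Plau, 1.58, was found for 2.21% of all tested probe sets. For Adam8 (SD 0.95) that share was 8.03% and for Plaur 8.86%. For the brightest probe sets of Timp2 (SD 0.21) and Timp3 (0.42) it was 67.8% and 36.5%. Timp1 varied more among controls, where its SD of 0.70 was matched or passed by 3.97% of all tested probe sets, than among transgenic tumours, where the share was 54.6%.

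For the genes ranging by at least 2 log2 units, the genes with the most similar profile were found by the root mean square difference of centred log2 values over the 6 arrays, among 10288 genes. For Timp1 these were Il1r1, the interleukin-1 receptor (0.12), Gpt2, an alanine aminotransferase (0.17), and the monocyte chemokine gene Ccl7 (0.18). Il1r1 read 7.06, 7.57 and 8.29 on control arrays and 6.09, 6.58 and 6.61 on transgenic arrays. For Plau they were Gsta3, a glutathione transferase (0.27), N4bp2l1 (0.30) and the EGF receptor ligand gene Btc (0.30). Btc was at 9.67 on transgenic array 1 and at 7.27 to 7.88 on the others. For Plat they were Sp5, a Wnt-responsive transcription factor (0.20), Lcn2, an iron-siderophore binding protein (0.28), and the keratin gene Krt23 (0.29). Sp5 was at 4.05 on transgenic array 2 and at 8.93 to 9.91 on the others. These likenesses are descriptions over 6 arrays.

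Around these members, 44 further genes of the plasminogen, serpin, cystatin and metalloproteinase systems from a list were measured. Of the 44 genes, taken by their brightest probe set, 33 were tested. With limma 0 of the 33 passed an adjusted p of 0.05 and 3 had an unadjusted p under 0.05, which 5.5% of all tested probe sets had. Means were lower in the transgenic tumours for 18 and higher for 15, and 53.2% of all tested probe sets had a lower transgenic mean. The median difference was -0.13, beside -0.02 over all tested probe sets. Groups did not overlap for 7 lower genes and 1 higher gene, 8 of 33, beside the 10.9% of all tested probe sets. With 1 array left out the unadjusted count ran from 1 (without control array 2 or 3) to 8 (without transgenic array 1 or 3), and it was 6 without transgenic array 2. The count without overlap was 15 without transgenic array 1 or 3 and 13 without control array 1. The matching shares over all tested probe sets were not counted with an array left out. Smaller groups overlap less easily, so the count without overlap cannot be set against the 10.9%. Without its matching share, the unadjusted count cannot be set against the 5.5% either.

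The 3 genes with an unadjusted p under 0.05 were Mmp2, Serping1 and Serpinb6a. Mmp2, the gelatinase that Timp2 helps to activate, read 8.92, 9.22 and 9.22 on control arrays and 8.59, 8.06 and 8.38 on transgenic arrays 1 to 3, a difference of -0.78 ± 0.19 (SE) at a limma unadjusted p of 0.00625 and an adjusted p of 0.806. All 3 transgenic arrays were below all controls. Serping1, the inhibitor of complement C1 that also blocks kallikrein, differed by -0.65, and Serpinb6a, an intracellular serpin, by 0.53. Their groups did not overlap either, and the adjusted p was 0.806 for both.

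The genes named next were all at an adjusted p of 0.806 with limma. Groups did not overlap for Lrp1, St14, Serpinh1 and Mmp9, nor for the cathepsin gene Ctsb, which differed by -0.21 and was named after its value was seen, to complete the 8 genes without overlap. Lrp1, the receptor that clears protease and inhibitor complexes, differed by -0.39 and Mrc2, a collagen uptake receptor, by -0.52. The membrane serine protease gene St14 differed by -0.31, the collagen chaperone gene Serpinh1 by -0.96 and Adamts9 by -1.07. Serpinh1 was at 7.77 on transgenic array 1, where the mean of the fibroblast markers was lowest, and at 9.18 to 9.90 elsewhere. Of those markers Pdgfra and Fn1 were lowest on transgenic array 2, and Pdgfrb and Dcn on transgenic array 3. The part of fibroblasts in the Serpinh1 value was not tested. Mmp9, which encodes a gelatinase that Timp1 inhibits, differed by -1.95 with transgenic array 2 at 4.08 and the other transgenic arrays at 6.96 and 7.87. Mmp3 and Mmp13, a stromelysin and a collagenase, differed by 2.00 and 0.75, both highest on transgenic array 1 at 11.44 and 12.58. Slpi, an inhibitor of neutrophil elastase, differed by 1.35 and was highest on transgenic array 2 at 12.07.

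Plg, which encodes plasminogen, was at 2.08 to 2.36 on all 6 arrays, under the detection level in these tumours. Serpinb2, an inhibitor of urokinase, was at 6.84 on transgenic array 2 and at 2.00 to 2.32 on the other 5. Timp4, the remaining TIMP, had the same pattern, at 8.32 on transgenic array 2 and 2.95 to 3.24 on the others. Both were thus detected on the array where squamous and smooth muscle markers were highest, and were not tested. Among genes picked after their values were seen, the matrix protease gene Adamts1 was at 8.06 and the serpin gene Serpina3n at 7.71 on transgenic array 1, against at most 5.87 and 4.46 on the others, as for Plau and Plaur. Their adjusted p was 0.810 and 0.825 with limma.

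**Figure D4:**
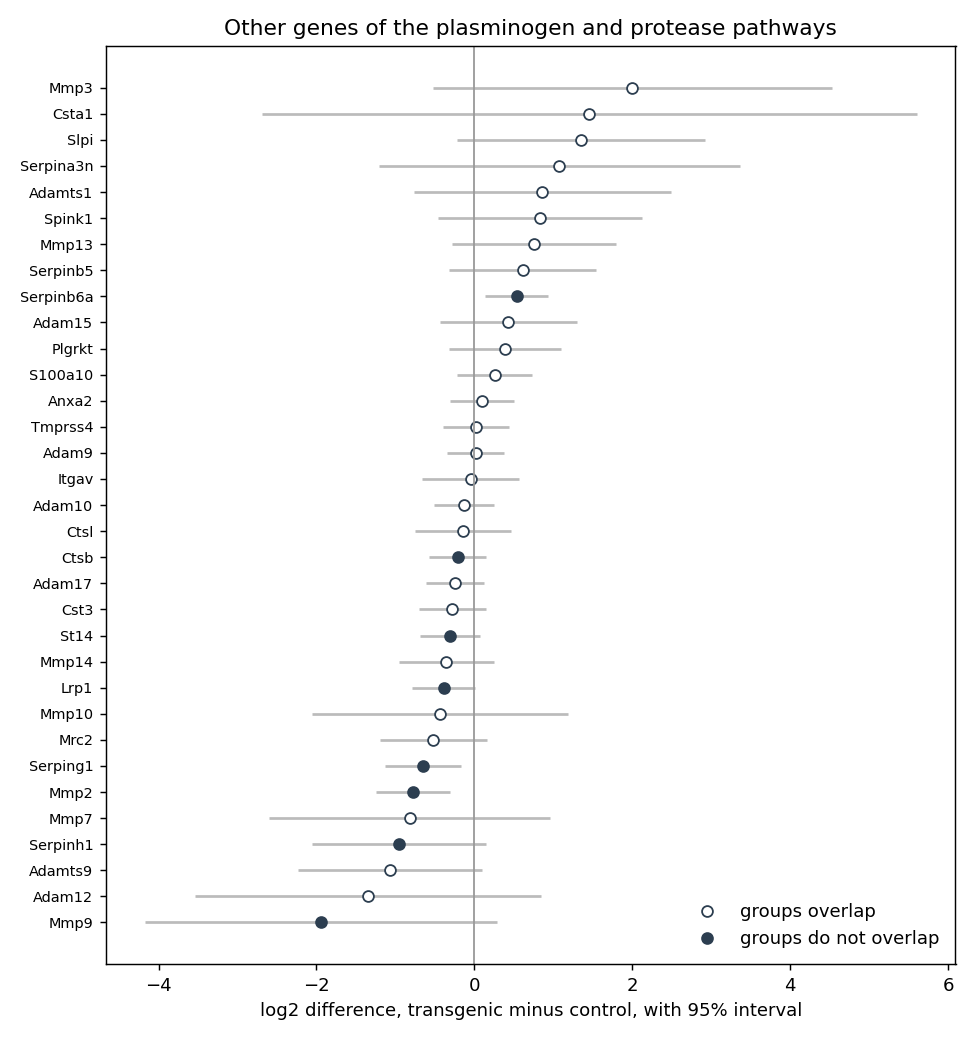
Log2 difference between transgenic and control tumours (x axis) with its 95% interval (lines) for 33 tested genes of the plasminogen and protease systems, ordered by difference; filled points mark the 8 genes whose groups do not overlap. Differences run from -1.95 for Mmp9 to 2.00 for Mmp3, and 18 of the 33 are below 0, as are 53.2% of those of all tested probe sets.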

How the data were processed

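The deposited values are log2 expression values that the authors made with GCRMA, per the submitters' processing notes (version and build: not given in the sources used here). Their range shows a log2 scale, and they were used as deposited. Biotin-labelled total RNA was hybridised to Affymetrix arrays, and precision is limited by having 3 arrays in a group. Genes were named from the platform annotation table.

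A probe set was tested when 3 or more of the 6 arrays had it at a log2 value of 4 or higher, AFFX controls left out, which kept 19310. A value under 4 is called under the detection level. Groups came from the titles, because the word control stands in the source label of every sample. The fit used lmFit and eBayes of limma 3.58.1 (R 4.3.3), and p-values were adjusted by Benjamini-Hochberg over the whole tested table. The procedure was tested on simulated data. The members and gene lists were chosen with earlier results of these data known. The gene's main probe set is the brightest over all arrays. From the pathway list the text names the 12 genes with the smallest unadjusted p, and Plg, Serpinb2 and Timp4; Ctsb, Adamts1 and Serpina3n are named outside this rule, after their values were seen. Likeness was sought for members ranging by 2 or more, with 3 genes each. Marker means use every annotated marker, a choice made after seeing the data. Alternatives were other filters, quantile normalization, median centring, a trended robust prior, array weights, values under 4 set to 4, the replicate number as a block, leaving out named X- and Y-linked genes (Timp1, a member, was kept), a threshold of 0.1 and leaving out each array.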

Additional observations from a re-analysis of the deposited data

How the results depend on the processing

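No member and no pathway gene passed in any of the 16 alternative settings, counting an adjusted p threshold of 0.1; with limma the members' unadjusted count was 1, and 0 to 2 with an array left out. Timp1, Plaur and the brightest Timp2 probe set kept their direction in all settings run for them. For Timp1 this was fixed beforehand where an array was left out, because its groups did not overlap. Timp1 ran from -1.49 to -0.81 with an array left out, at adjusted p of 0.399 to 0.999 over all settings. Plaur ran from 0.03 to 0.82. Leaving out 1 array turned the sign of Plat (-2.67 to 0.16), Plau (-0.14 to 1.44), Adam8 (-0.49 to 0.45), the second Plat probe set (-0.78 to 0.72), the brightest Timp3 probe set (-0.020 to 0.35), its other tested ones (-0.13 to 0.32 and -0.25 to 0.38) and the other Timp2 ones (-0.29 to 0.013 and -0.62 to 0.068). Array quality weights put the 3 Timp3 probe sets at -0.18, -0.25 and -0.28, quantile normalization Adam8 at 0.0052, and values under 4 set to 4 the second Plat probe set at 0.13. Member probe sets with groups not overlapping numbered 1 to 4 with an array left out: 4 when control array 1 or transgenic array 3 was left out, 3 for transgenic array 1 and 2 for transgenic array 2. For pathway genes this count was 9 to 15, and the unadjusted count was 6 without a filter, 5 with array weights and 1 to 8 with an array left out. The matching shares over all tested probe sets were not counted in these settings, so no conclusion is drawn from the counts. Plau and the second Plat probe set did not pass the filter at 6.

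No pairing by replicate number was seen: deviations of same-numbered arrays correlated at -0.27, -0.28 and -0.05, and those of other pairs at -0.06 to 0.30. With 3 arrays in a group these correlations cannot exclude a pairing. With the replicate number as a block the Timp1 difference was -1.21 (adjusted p 0.943), 0 members passed and 8 probe sets passed in all, against 11. The squamous marker mean on transgenic array 2 was 11.88 over the 4 markers that passed the filter and 10.74 over all 9. Array values near 4 are limited by signal over background, which touches Adamts4, Plau and the second Plat probe set.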
